A study of Mus musculus with 2 samples.

Results

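The genes described are 9 members of sphingolipid metabolism and sphingosine 1-phosphate (S1P) signalling, out of 18194 genes read by a probe set with 1 annotated symbol. They are Sptlc1 and Sptlc2 (serine palmitoyltransferase), Cers2 (ceramide synthase), Sphk1 and Sphk2 (sphingosine kinases), Sgpl1 (S1P lyase) and S1pr1, S1pr2 and S1pr5 (S1P receptors). They were chosen by symbol, with earlier results of these arrays known, and 18 probe sets read them. S1pr5 had already been seen among the lowest ratios on these arrays, so its value here is a description.

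The data came from livers of 13-week-old ICR mice, an outbred stock. At 9 weeks of age the diosgenin group was put for 4 weeks on the CRF-1 diet supplemented with diosgenin, a steroidal sapogenin of yams, at 500 ppm, and the control group ate CRF-1 alone. RNA of 3 mice was pooled for each of the 2 Affymetrix arrays, 1 per diet, so no replicate check exists and no test was possible. Each difference below is one between 2 pools, and the spread between mice is unknown. Mice were housed 3 to a cage, and cage and diet cannot be told apart if each diet filled a single cage, which the labels leave unsaid.

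Sphingolipid synthesis starts in the endoplasmic reticulum, where serine palmitoyltransferase joins serine to palmitoyl-CoA, and ceramide synthases then attach a second fatty acid to the sphingoid base. Ceramide is turned into sphingomyelin or glycosphingolipids, or is broken down to sphingosine, which the sphingosine kinases phosphorylate to S1P. S1P can be dephosphorylated, degraded for good by the lyase Sgpl1, or exported to act on G protein-coupled receptors. In mice S1pr1 is prominent in endothelium and on lymphocytes, S1pr2 is also known in hepatocytes as a receptor that conjugated bile acids activate, and S1pr5 is known from natural killer (NK) cells, patrolling monocytes and oligodendrocytes.

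The deposited values were signals on a linear intensity scale. Both arrays had a trimmed mean signal of 96.9, so they had been scaled alike. Before taking log2, any signal below 10.7 was raised to this floor, which is the 40th percentile over both arrays. The brightest probe set stood for a gene, which was kept where its mean signal over both arrays reached 28.4, the 60th percentile, which left 9732 genes and 8 of the 9 described here. Every log2 ratio is diosgenin over control. Around the mean of their gene, probe sets had a pooled standard deviation of 0.28 in log2 ratio, over 4079 genes with 2 or more above the filter. It serves as a scale for reading single ratios and holds no spread between mice. The 8 hepatocyte markers examined, Alb and Apoa1 among them, were all above the filter on these arrays, which fits the liver label.

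S1pr5 was 3.59-fold lower on the diosgenin array. By their brightest probe sets, the others of the 8 kept genes had log2 ratios from −0.04 to 0.22. A dimmer probe set of Sgpl1, also above the filter, was 1.45-fold lower. At least 2-fold lower signals were found for 1 of the 8 genes above the filter, against 0.853% of all genes above it. No gene of the 8 was at least 2-fold higher, against 0.555% of all genes. The median log2 ratio of the 8 was 0.03 and that of all 9732 genes was −0.01. Of the 8, 5 had a ratio above 0 and 3 below it, where 49.0% of all genes were above 0.

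The promoters of S1pr5 and S1pr2 are shown because these 2 receptor genes lie on the same strand of chromosome 9 and differed in opposite directions between the arrays, S1pr5 by −1.84 and S1pr2 by 0.22 on the log2 scale, the second within the spread between probe sets of a gene. The windows run from 250 bases before to 50 bases after the annotated start, are taken from RefSeq in build GRCm38.p6, are both on the minus strand and are written 5′ to 3′. Capitals mark matches to the GC box. The S1pr5 window is chr9:21248394-21248693 and the S1pr2 window chr9:20976744-20977043.
S1pr5: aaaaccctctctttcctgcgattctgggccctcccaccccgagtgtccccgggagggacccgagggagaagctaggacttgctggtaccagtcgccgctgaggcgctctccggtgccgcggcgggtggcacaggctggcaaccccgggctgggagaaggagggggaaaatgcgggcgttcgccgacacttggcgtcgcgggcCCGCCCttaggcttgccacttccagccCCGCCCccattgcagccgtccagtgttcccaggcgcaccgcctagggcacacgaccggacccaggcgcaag
S1pr2: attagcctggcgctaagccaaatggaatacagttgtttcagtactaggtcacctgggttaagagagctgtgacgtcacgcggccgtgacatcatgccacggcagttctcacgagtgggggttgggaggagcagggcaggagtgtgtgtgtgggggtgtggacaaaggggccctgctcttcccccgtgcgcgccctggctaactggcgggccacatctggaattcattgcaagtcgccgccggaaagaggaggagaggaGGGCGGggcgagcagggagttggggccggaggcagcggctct

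Motifs were searched on both strands by exact letters, namely the GC box GGGCGG, the CCAAT box CCAAT, the TATA box TATAAA, the E-box CACGTG and the T-box core GGTGTGA. The S1pr5 window held 2 GC boxes and the S1pr2 window held 1, and neither held any of the other 4 motifs. Matches did not overlap in either window. A GC box is found in 35.7% of all 32851 promoter windows, and 13.6% hold a TATA box, 37.4% a CCAAT box, 7.15% an E-box and 3.98% a T-box core. The bases G and C made up 69.3% of the S1pr5 window and 62.0% of the S1pr2 window, where the median of all windows was 52.7%. The table of promoters held 8 of the 9 genes, and S1pr1 was not among them. A match describes the letters of a window and is not evidence of binding.

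The first step of synthesis was read at nearly the same level on both arrays. Sptlc1, the subunit of serine palmitoyltransferase that pairs with the catalytic one, had a signal of 293.5 on the diosgenin array and 294.9 on the control array by its brightest probe set, 1422690_at. The log2 ratio was −0.01. A second probe set, 1436726_s_at, which can bind several transcripts, gave 107.6 on the diosgenin array and 106.5 on the control array. Both differences were far under the standard deviation between probe sets of a gene.

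The dim probe sets of Sptlc1 did not follow. The probe set 1436727_x_at had 31.4 on the diosgenin array and 16.9 on the control array, a log2 ratio of 0.89, with a mean under the filter. The probe set 1422691_at had 15.8 on the diosgenin array and 3.07 on the control array, where the control signal is under the floor, and gave a bound of at least 1.47-fold higher. These 2 probe sets were the dimmest of the 4 for this gene and are not used for its value.

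Sptlc2, the subunit that carries the cofactor of the enzyme, showed the same closeness. Its brightest probe set, 1460243_at, had 100.1 on the diosgenin array and 97.9 on the control array, a log2 ratio of 0.03. The second, 1435937_at, had 58.7 on the diosgenin array and 58.9 on the control array. The third, 1454257_at, was under the floor on both arrays, at 3.04 on the diosgenin array and 3.73 on the control array, and gives no ratio. Over both subunits, the 4 probe sets above the filter had log2 ratios within −0.01 and 0.03.

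Cers2, the ceramide synthase that makes very long chain ceramides and is the main form in liver, had 1959 on the diosgenin array and 2009 on the control array. The log2 ratio was −0.04. It was read by 1 probe set, 1423955_a_at, which can bind several transcripts of the gene. At this brightness, among the 2433 brightest genes, the central 95% of genes ran from −0.47 to 0.44, and Cers2 lay near the middle of it.

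Of the kinases that make S1P, Sphk2 passed the filter and differed by less than the spread between probe sets. Sphk2, the isoform with nuclear and mitochondrial roles, had 286.4 on the diosgenin array and 267.9 on the control array by 1417431_a_at, a log2 ratio of 0.10. Its other probe set, 1426230_at, had the opposite sign, with 27.2 on the diosgenin array and 30.7 on the control array, at a mean just above the filter. The direction for Sphk2 is therefore not settled by these arrays.

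Sphk1, the mostly cytosolic isoform, was too dim to be counted. Its brighter probe set, 1451596_a_at, had 19.1 on the diosgenin array and 15.1 on the control array, above the floor and under the filter, with a log2 ratio of 0.34. The other, 1420566_at, was under the floor at 0.354 on the diosgenin array and 1.87 on the control array. At such dim signals this ratio is not read as a difference between the diets.

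Sgpl1, the lyase that cleaves S1P irreversibly, had the widest gap among the 9 genes between probe sets above the filter. The brighter one, 1415892_at, had 318.0 on the diosgenin array and 277.1 on the control array, 1.15-fold higher with a log2 ratio of 0.20. The dimmer one, 1415893_at, had 64.5 on the diosgenin array and 93.5 on the control array, 1.45-fold lower with a log2 ratio of −0.54. The gap of 0.73 between them was over the standard deviation of 0.28 between probe sets of a gene, and both passed the filter. No direction can be given for the lyase.

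**Figure D1:**
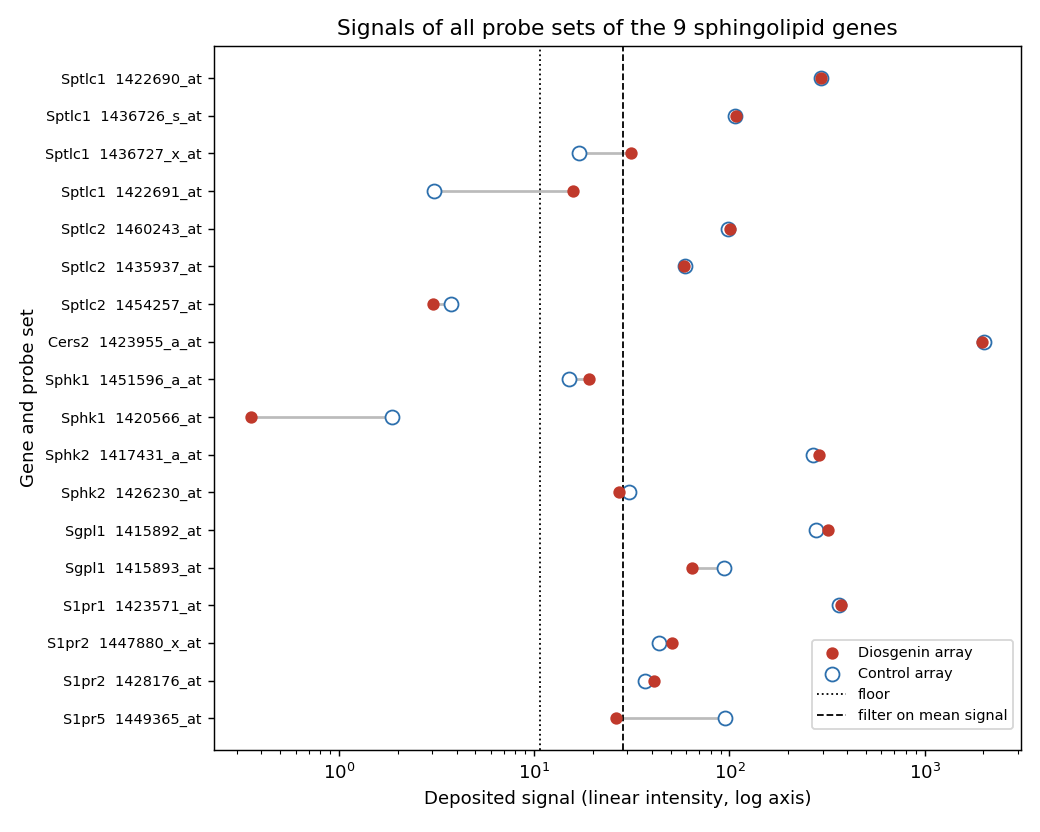
Deposited signals of the 18 probe sets of the 9 genes on the diosgenin array (filled red) and the control array (open blue), on a log axis, with the floor of 10.7 dotted and the filter of 28.4 on the mean signal dashed. Points overlap for most probe sets to the right of the filter, S1pr5 is apart at 26.4 on the diosgenin array and 94.6 on the control array, and the other wide gaps lie left of the filter or across it except that of the dimmer Sgpl1 probe set.

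Among the receptors, S1pr1 was alike on both arrays. S1pr1, which keeps vascular endothelium tight and guides lymphocytes out of tissues, had 374.0 on the diosgenin array and 365.4 on the control array. The log2 ratio was 0.03, from the 1 probe set of the gene, 1423571_at.

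S1pr2 was slightly higher by both of its probe sets, within the spread between probe sets. The brighter one, 1447880_x_at, which can bind other transcripts, had 50.8 on the diosgenin array and 43.7 on the control array, a log2 ratio of 0.22. The other, 1428176_at, had 40.95 on the diosgenin array and 36.97 on the control array, a log2 ratio of 0.15. Both are dim, and the central 95% of the 2433 dimmest genes ran from −0.95 to 0.83.

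S1pr5 had 26.4 on the diosgenin array and 94.6 on the control array. This is 3.59-fold lower, a log2 ratio of −1.84, read by the 1 probe set of the gene, 1449365_at. Among all 9732 genes above the filter, 12 were as low or lower, S1pr5 included. The diosgenin signal is above the floor of 10.7 but under the filter value of 28.4, so the gene passed the filter through its control signal. The value was not checked against a second probe set, since 1 was annotated to the gene. With a filter at the 75th percentile S1pr5 is too dim to be kept.

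The spread of genes with similar brightness is given for scale. For 624 genes the brighter of the 2 signals lay within 10% of the 94.6 of S1pr5. Their median difference was 0.19 in either direction on the log2 scale, and 95% of them were under 0.72. S1pr5 was the 1 gene at or below −1.84 among them, and 2 genes were at or above 1.84. These genes were picked around the control signal of S1pr5 after its value was known, so they describe how such signals spread and add no support to it.

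The receptors outside the 9 genes were S1pr3 and S1pr4. S1pr3, a receptor of vascular and stellate cells, had 32.1 on the diosgenin array and 38.1 on the control array, a log2 ratio of −0.25. S1pr4, a receptor of blood cells that is named here to complete the family, was under the filter, with 23.3 on the diosgenin array and 17.5 on the control array.

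**Figure D2:**
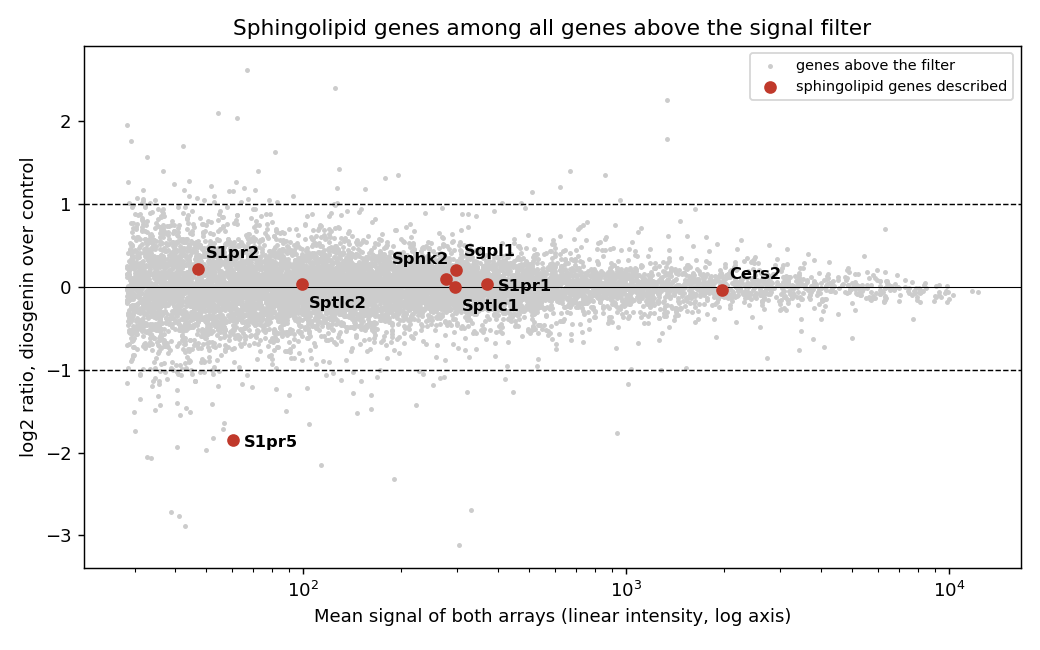
Log2 ratio, diosgenin over control, against the mean signal of both arrays for 9732 genes (grey), with the 8 sphingolipid genes above the filter in red and dashed lines at 2-fold. S1pr5 lies at −1.84, outside the central 95% of the 2433 dimmest genes, of which 8 were as low or lower, S1pr5 included. The other 7 lie between −0.04 and 0.22 inside the cloud.

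The neighbours of S1pr5 on chromosome 9 were examined after its value was seen, using gene order in RefSeq GRCm38.p6. Of the 5 protein-coding genes on each side, 8 of 10 were above the filter, with log2 ratios from −0.85 to 0.18. Pde4a, a phosphodiesterase under the filter, had 28.8 on the diosgenin array and 13.9 on the control array, a log2 ratio of 1.05. Keap1, the NRF2 inhibitor on one side, had 277.8 on the diosgenin array and 256.0 on the control array. Atg4d, an autophagy protease on the other side, had 144.2 on the diosgenin array and 250.9 on the control array, a log2 ratio of −0.80. The choline transporter-like gene Slc44a2, the fifth gene on that side, had 66.8 on the diosgenin array and 120.7 on the control array, and its second probe set above the filter gave −0.70, while another under the filter gave 0.42. Atg4d and Slc44a2 were the 2 neighbours above the filter at least 1.5-fold lower, against 3.61% of all genes.

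Of 65 other sphingolipid genes on fixed lists, 58 had a probe set and 41 were above the filter. Their median log2 ratio was 0.01, with 21 above 0 and 20 below it. At least 1.5-fold lower were 2 of them, against 3.61% of all genes, and 0 were at least 1.5-fold higher, against 2.84%. No p-value exists for any of these counts.

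Genes of ceramide synthesis, Sptlc1, Sptlc2 and Cers2 included, had 7 ratios above 0 and 2 below it, where 49.0% of all genes were above 0. Their median was 0.12, inside the spread between probe sets. The largest was that of Cers6, a ceramide synthase for shorter acyl chains, with 72.7 on the diosgenin array and 54.4 on the control array and a log2 ratio of 0.42. Ormdl1, whose family restrains serine palmitoyltransferase, had 500.0 on the diosgenin array and 433.5 on the control array, a log2 ratio of 0.21. By their brightest probe sets, Ormdl1 and the others of this branch apart from Cers6 were within the spread between probe sets. A dimmer probe set of Kdsr, another gene of the branch, was above the filter and gave 0.48.

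Enzymes around sphingosine and S1P, Sphk2 and Sgpl1 included, had 4 ratios above 0 and 7 below it, where 49.0% of all genes were above 0. Their median was −0.04, well inside the spread between probe sets. Acer3, an alkaline ceramidase, had 103.1 on the diosgenin array and 133.4 on the control array, a log2 ratio of −0.37, but its second probe set above the filter gave 0.08. Plpp1, a lipid phosphatase that can dephosphorylate S1P, had 160.4 on the diosgenin array and 202.8 on the control array, a log2 ratio of −0.34, and its second probe set above the filter, a shared one, gave −0.58. Its last probe set was under the floor on both arrays.

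The carriers of S1P went in opposite directions. Spns2, the transporter by which endothelium releases S1P, had 157.3 on the diosgenin array and 239.5 on the control array, 1.52-fold lower with a log2 ratio of −0.61 from its 1 probe set, which can bind several transcripts of the gene and is lost where such probe sets are left out. Apom, the apolipoprotein that carries S1P on HDL and is named here after its values were seen, had 2647 on the diosgenin array and 2080 on the control array. Its log2 ratio was 0.35, and its second probe set gave 0.34 at 2335 on the diosgenin array and 1847 on the control array.

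Sphingomyelin genes were split by their brightest probe sets, with 4 of 8 above 0 and 4 below. Samd8 was counted as higher at 0.29, but its second probe set above the filter gave −0.71. Smpd3, neutral sphingomyelinase, had 21.3 on the diosgenin array and 37.9 on the control array, 1.78-fold lower at dim signals. Its log2 ratio of −0.83 lay inside the central 95% of the 2433 dimmest genes, from −0.95 to 0.83. The diosgenin signal is under the filter value of 28.4, so Smpd3 passed the filter through its control signal. With the floor at the 60th percentile its diosgenin signal is under the floor, and its log2 ratio of −0.41 is a bound that falls short of 1.5-fold. Its other 2 probe sets were under the filter, and the brighter of these had 16.9 on the diosgenin array and 16.8 on the control array. Sgms2 and Sgms1, the sphingomyelin synthases, are named after their values were seen. Sgms2 had 485.5 on the diosgenin array and 336.1 on the control array, a log2 ratio of 0.53, and its second probe set gave 0.57. Its brightest probe set lay above 0.44, where the central 95% of the 2433 brightest genes ended. Sgms1 had a log2 ratio of 0.41, and its other probe sets above the filter gave 0.22 and −0.38.

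Glycosphingolipid and transfer genes had a median of 0.11, with 8 of 15 above 0. Cptp, which transfers ceramide 1-phosphate, had 141.4 on the diosgenin array and 189.5 on the control array, a log2 ratio of −0.42. B4galt5, which makes lactosylceramide, had 151.8 on the diosgenin array and 114.1 on the control array, a log2 ratio of 0.41 from a probe set that can bind several transcripts. None of the 15 reached 1.5-fold.

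**Figure D3:**
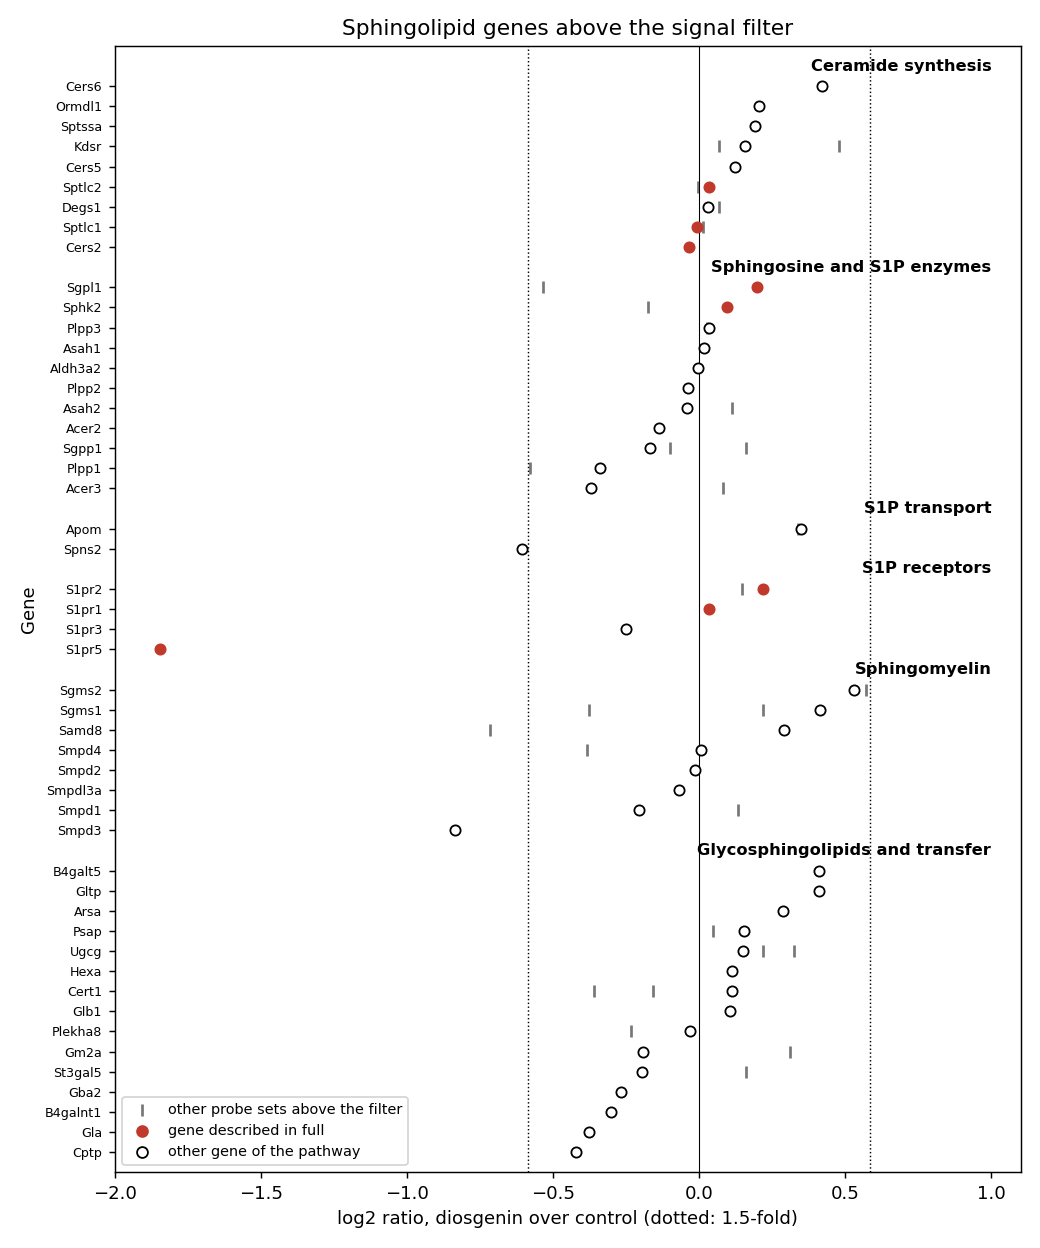
Log2 ratios of all sphingolipid genes above the filter, grouped by role, with the 8 genes described in full in red, the other 41 open, further probe sets above the filter as grey ticks and 1.5-fold as dotted lines. S1pr5 at −1.84, Smpd3 at −0.83 and Spns2 at −0.61 are the genes left of the lower 1.5-fold line, and none lies right of the upper one. The tick of a further Samd8 probe set, at −0.71, is also left of the lower line.

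In whole liver, fewer cells of a type and less RNA per cell cannot be told apart, so markers of the cells that carry these receptors are given beside them. Of the 16 endothelial markers, all above the filter, 14 were lower, with a median log2 ratio of −0.29. Of all genes above the filter, 49.0% had a ratio above 0. Their summed signal was 3148 on the diosgenin array and 4040 on the control array. Clec4g, a sinusoidal lectin, had the lowest ratio at −0.68, followed by the Fc receptor Fcgr2b at −0.59 and Bmp2 at −0.52. Of the 16, Cdh5 at 0.03 and Tie1 at 0.08 were higher, and Eng at −0.03 and Kdr at −0.06 differed little. Log2 ratios of the 16 ran from −0.68 to 0.08, and both Spns2 at −0.61 and S1pr1 at 0.03 lay inside this range. Spns2 was below the median of the 16 and S1pr1 above it. The part of the endothelial markers in the Spns2 and S1pr1 values was not tested.

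NK cell markers were near the floor. Only Prf1 of the 11 with a probe set was above the filter, with 30.3 on the diosgenin array and 36.8 on the control array. Of the list, Ncr1, Klre1, Gzmb and Tbx21 were under the floor on both arrays. Klrd1, Klrk1, Il2rb and Gzma were above the floor on both arrays but under the filter. The summed signal was 140.5 on the diosgenin array and 138.4 on the control array. Most of this sum lies near the floor, so it could not show a difference in NK cells in either direction.

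Markers of patrolling monocytes, a list added after the data were seen, had 4 of 7 above the filter. These 4 were higher, where 49.0% of all genes were above 0, with a median of 0.29. Itgal, an integrin, was at 0.45, the transcription factor Nr4a1 at 0.30 and the Fc receptor Fcgr4 at 0.28. Under the filter, Spn, the sialophorin CD43, had 17.0 on the diosgenin array and 25.7 on the control array, and Treml4 had 34.5 on the diosgenin array and 18.1 on the control array. Cx3cr1 had 15.9 on the diosgenin array and 6.99, under the floor, on the control array. The summed signal of the 7 was 256.8 on the diosgenin array and 207.9 on the control array, with part of the gap from Treml4 and Cx3cr1.

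The remaining lists of resident liver cells went in several directions. Kupffer cell markers were higher in 7 of 9 cases, where 49.0% of all genes were above 0, with a median of 0.22. Marco was at 1.76 from dim signals, Clec4f at 0.36 and C1qa at 0.24. Stellate cell markers, 7 of 8 above the filter, had a median of 0.21, with Pdgfrb at −0.39, Dcn at 0.37 and Des at 0.37. Hepatocyte markers had a median of −0.03, with Alb at −0.18, Cps1 at 0.14 and Ttr at −0.12. Of 5 bile duct markers Sox9 alone was above the filter, at −0.69, and the summed signal of the list was 64.1 on the diosgenin array and 112.4 on the control array.

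Lymphocyte and blood lists gave little. Of 6 T cell markers 1, Cd8a, was above the filter at −0.01, and Cd3d, Cd3g and Cd8b1 were under the floor on both arrays. Of 5 B cell markers 2 were, Ighm at −0.56 and Pax5 at 0.31. The erythroid and platelet list had a median of 0.07 over 3 genes, Alas2 at −0.22, Itga2b at 0.16 and Pf4 at 0.07. The part of any of these cell types in the S1pr5 value was not tested.

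**Figure D4:**
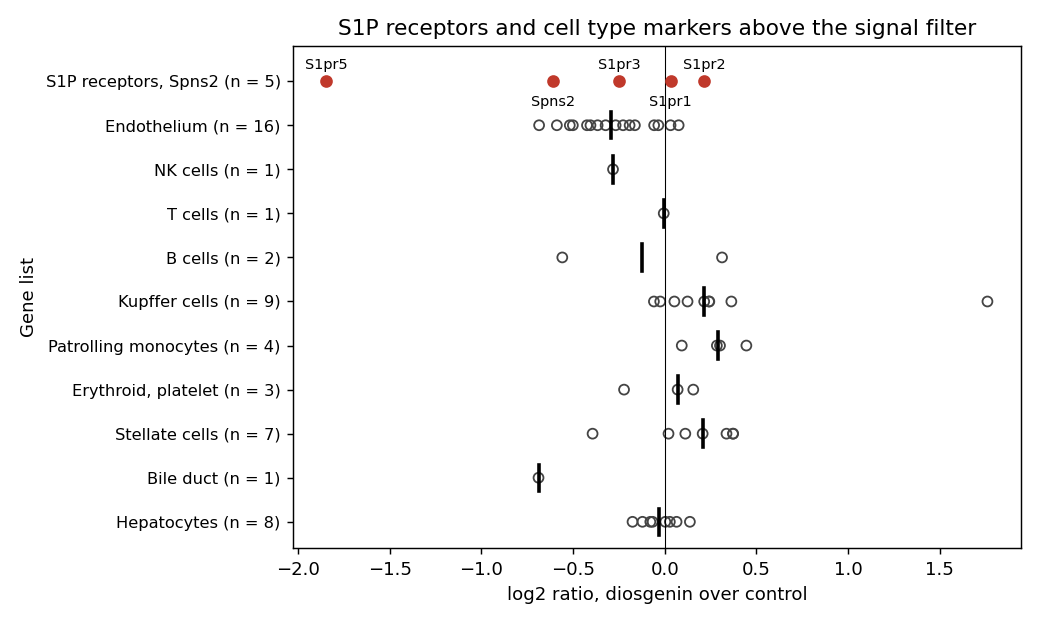
Log2 ratios of the 4 S1P receptors above the filter and Spns2 (red) above those of cell type markers above the filter (open circles, with the median of each list as a bar). S1pr5 at −1.84 is lower than every marker shown. S1pr1 at 0.03 and Spns2 at −0.61 are both within the endothelial range of −0.68 to 0.08. S1pr1 is right of the endothelial median of −0.29 and Spns2 is left of it.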

How the data were processed

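Total RNA of 3 mice per diet was pooled, and aliquots of 5 µg were labelled with biotin, per the labels' protocols. The authors deposited 1 intensity per probe set on a linear scale for 45101 probe sets. Per the submitters' processing notes GCOS, software of Affymetrix, was used. How probes were summarised, the target of scaling and any detection calls were not given in the sources used here. Neither array was normalized further.

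Names came from the platform annotation, and only probe sets with 1 symbol were used, 34958 in all. All 9 genes matched the RefSeq table of GRCm38.p6 by gene identifier. Python 3.11.15, pandas 2.3.3 and numpy 2.4.6 computed the log2 ratios, and matplotlib 3.10.9 drew the figures. The procedure was tested on simulated arrays with the same noise at every brightness. This does not show how ratios of dim signals behave. With 1 array per diet no test was run and no error could be estimated, and the number of arrays limits the precision.

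The 9 genes, the pathway lists and the marker lists were chosen with earlier results of these data known. All 9 genes are named. From each pathway list, genes at least 1.5-fold apart are named, or otherwise the 2 largest ratios, and from each marker list up to 3 largest. Some other markers are named after their values were seen. Alternatives were other floors, other filters, the median of probe sets, no shared or alternative probe sets, and centring.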

Additional observations from a re-analysis of the deposited data

How the results depend on the processing

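S1pr5 was the 1 gene of the 9 at least 2-fold apart under 6 of the 7 alternatives. With the filter at the 75th percentile it was no longer kept and the count was 0. Its log2 ratio was −1.73 with a floor at the 60th percentile, where its diosgenin signal is under the floor and the value is a bound, and −1.84 under the others that kept it. The count of other sphingolipid genes at least 1.5-fold apart, 2 as reported, was 1 with that floor, 1 without shared and alternative probe sets and 1 with the stricter filter. It was 4 with no filter, which adds Galc and Gal3st1, both lower by their brightest probe sets. Another Galc probe set, also under the filter, gave 0.62, with 22.4 on the diosgenin array and 14.6 on the control array. No direction can be given for Galc. Smpd3 was at −0.41 with the floor at the 60th percentile, which is also a bound. With the median of its probe sets Sgpl1 was at −0.17, and Sphk2 was at −0.04, or −0.18 when shared and alternative probe sets were left out. Over the kept genes of the 9 the median ranged from −0.02 to 0.04, and was 0.03 without S1pr5, an alternative chosen after seeing the data. Centring moved all ratios by 0.01. No paired analysis was possible because each diet had 1 array. Dim signals limit what can be read for S1pr5, S1pr2, S1pr3, S1pr4, Sphk1 and Smpd3, among others.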
